A study of Mus musculus with 8 samples.

Results

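Histone deacetylase transcripts were measured in single mouse bone marrow progenitor cells, and the members were the rows of the 8 count files named Hdac1 to Hdac8, Sirt1 and Sirt2. These are 10 of the 19879 gene names in the files. The genotypes are wild type and a heterozygote labelled Mof -/+, in which 1 of the copies of Kat8 (Mof), a histone lysine acetyltransferase gene, is lost. Each genotype gave 2 libraries labelled HSC (haematopoietic stem cells) and 2 labelled plate2. The design text lists further sort gates, from megakaryocyte-erythroid and granulocyte-monocyte to erythroid and megakaryocyte progenitors, but which plate2 well belongs to which gate is not labelled. No age, sex, strain or treatment is given, and the labels do not tie the libraries of a group to different mice. The p-values therefore reflect library-to-library spread, which may be technical only.

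Histone deacetylases remove acetyl groups from lysines of histone tails and of other proteins, the reverse of what acetyltransferases such as KAT8 do. Class I enzymes (HDAC1, HDAC2, HDAC3, HDAC8) are mostly nuclear. HDAC1 and HDAC2 are the catalytic pair of the NuRD, SIN3, CoREST and MiDAC repressor complexes, and HDAC3 is that of the NCoR and SMRT complexes. Class IIa enzymes (HDAC4, HDAC5, HDAC7) have weak catalytic activity of their own, bind MEF2 transcription factors and shuttle between nucleus and cytoplasm on 14-3-3 proteins after phosphorylation. HDAC6, of class IIb, works mainly on cytoplasmic proteins such as tubulin. SIRT1 and SIRT2 are sirtuins, which use NAD as a cosubstrate. In the blood system HDAC1 and HDAC2 act partly in the same complexes in stem cells and in the erythroid and megakaryocyte lineages.

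CEL-Seq2 counts 1 tag near the 3′ end of each captured transcript, so levels are given as CPM, a gene's share of all transcripts of its library on the usual CPM scale, with no scaling to gene length. A barcode with at least 1000 transcripts was kept as a cell, which left 436 cells, 232 in HSC and 204 in plate2 libraries. Library sums ran from 99312 to 734550 transcripts. Median transcripts per kept well were 1567 to 2979 in HSC and 8082 to 12530 in plate2 libraries, and the median of added spike-in molecules per well was 130 to 304 against 10.5 to 18.0. Of 184 barcode numbers kept in any library, 142 were kept in more than 1, and 2.29% to 13.6% of a library's transcripts lay in the run of 96 barcodes, first or last, that held the fewer transcripts. Of the 436 kept cells 19 lay in that run and could be wells of another library. They were 11 and 4 in wild type plate2 libraries 1 and 2, 3 in heterozygous plate2 library 1 and 1 in heterozygous HSC library 2. Sums and classes include them. Summed markers of stem cells, 15 in number, stood at 4800 to 6526 CPM in HSC and 889 to 1574 CPM in plate2 libraries, with 14 or 15 detected. Kat8 itself gave 1 and 2 transcripts in wild type HSC, 1 and 2 in heterozygous HSC, 10 and 4 in wild type plate2 and 9 and 12 in heterozygous plate2 libraries. These counts are too low to check the genotype labels.

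All 10 members were detected, and 3 of them made up most of the 1840 deacetylase transcripts. Hdac2 gave 29.2% of them (537 transcripts), Hdac7 25.7% (472) and Hdac1 14.5% (267). Sirt2 (158), Sirt1 (117), Hdac4 (104), Hdac5 (73) and Hdac3 (56) followed, and Hdac6 and Hdac8 gave 28 each. By mean CPM over the 8 libraries the order was Hdac2 at 180.3 ± 45.0 (SD, n = 8), Hdac7 at 144 ± 41.4, Hdac1 at 69.2 ± 33.0, Hdac4 at 41.3 ± 20.6, Sirt2 at 40.7 ± 22.6, Sirt1 at 36.0 ± 4.57, Hdac5 at 27.7 ± 15.7, Hdac3 at 14.9 ± 9.35, Hdac6 at 11.3 ± 13.1 and Hdac8 at 8.38 ± 3.96 CPM. Neighbours in this order differed by less than the larger of their SDs, except that Hdac7 stood above Hdac1 by more than either SD. Together the 10 members stood at 504 and 388 CPM in wild type HSC, 721 and 627 in heterozygous HSC, 538 and 572 in wild type plate2 and 660 and 581 in heterozygous plate2 libraries. The heterozygous sum was above the wild type sum in both sets. This sum was not tested, and heterozygous HSC wells were also deeper (medians of 2923 and 2979 transcripts against 1601 and 1567).

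**Figure D1:**
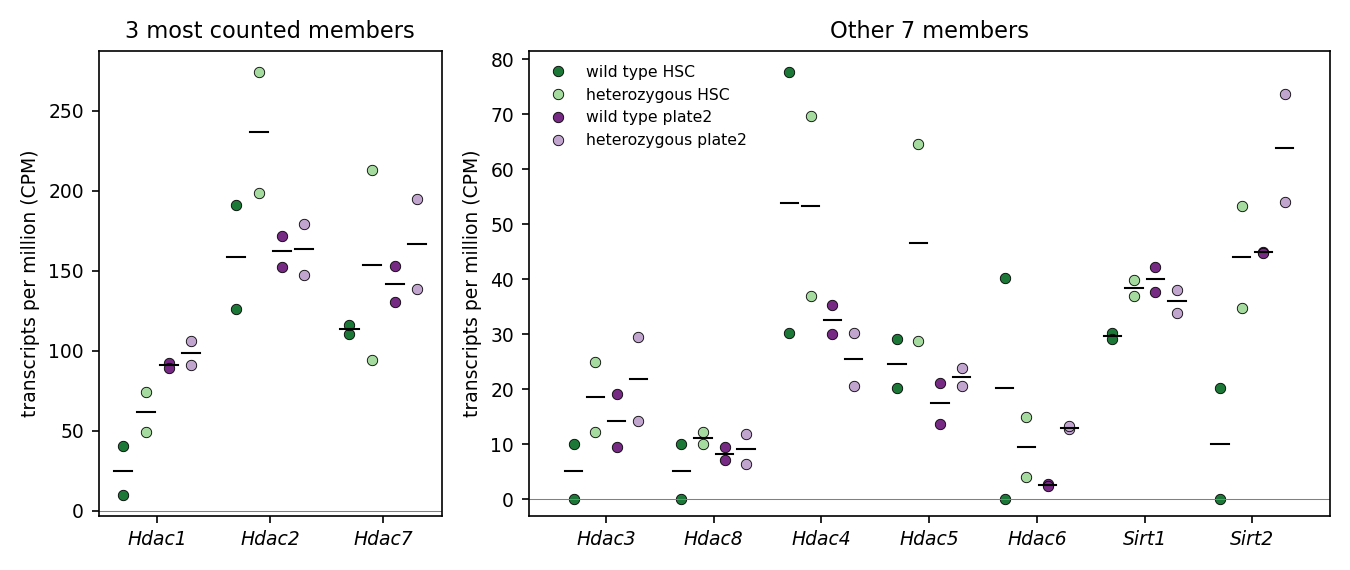
Level of each histone deacetylase gene in each library, in CPM (linear axes, separate scales for the 3 most counted genes and the other 7). Points are libraries, 2 per group, and short lines are group means. Hdac1 in all 4 plate2 libraries lay above all 4 HSC libraries, while Hdac2 overlapped.

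A filter on low counts left 6 members for testing, namely Hdac1, Hdac2, Hdac4, Hdac7, Sirt1 and Sirt2. Hdac3, Hdac5, Hdac6 and Hdac8 did not pass it and are described by their counts. Between genotypes none of the 6 tested members passed, and few genes of any kind did. At an adjusted p under 0.05 in edgeR's quasi-likelihood test, 0 members passed in the HSC libraries, where 0.0149% of 6690 genes were called. None passed in the plate2 libraries (background 0.553%) or over both sets with the plate set as a term (0.135%). At an unadjusted edgeR p under 0.05 stood 1 of the 6 members in HSC (Sirt2), 0 in plate2 and 0 over both sets. Of all 6690 genes, 722 stood there in HSC, 338 in plate2 and 399 over both sets. Neither DESeq2 nor limma-voom called any member. Over both sets 4 of the 6 members were positive, with a median log2 fold change of 0.16, where the median of all genes was -0.01.

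Class I is described first. Its 4 genes summed to 136 to 348 CPM in HSC and 274 to 306 CPM in plate2 libraries, and the 3 class IIa genes to 161 to 278 and 174 to 249 CPM. Class I was the larger sum in 7 of 8 libraries, the exception being wild type HSC library 2 at 136 against 223 CPM. In the HSC libraries Hdac1 stood at 40.3 and 9.70 CPM in wild type and 49.1 and 74.6 CPM in heterozygous cells, from 4, 1, 12 and 15 transcripts. In the plate2 libraries it stood at 92.6 and 89.5 CPM in wild type and 106 and 91.4 CPM in heterozygous cells. The genotypes were apart in HSC and overlapped in plate2, and 37.2% of all tested genes were apart in HSC in the same way. The fitted log2 fold change of Hdac1, heterozygous over wild type, was 1.22 ± 0.67 in HSC (SE, n = 2 libraries per genotype, edgeR adjusted p = 0.521) and -0.02 ± 0.31 in plate2 (adjusted p = 0.999). Over both sets it was 0.22 ± 0.30, with a 95% interval from -0.41 to 0.85 (adjusted p = 0.990). The difference between the 2 genotype effects was -1.24 ± 0.75 (adjusted p = 0.626), so a difference between the sets was not shown.

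Hdac2, the most counted deacetylase, stood at 191 and 126 CPM in wild type HSC, 274 and 199 in heterozygous HSC, 153 and 172 in wild type plate2 and 179 and 147 CPM in heterozygous plate2 libraries. Heterozygous HSC libraries were both above the wild type ones, by little in the case of library 2, and the plate2 libraries overlapped. The genotype effect of Hdac2 over both sets was 0.13 ± 0.24 (95% interval -0.37 to 0.62, edgeR adjusted p = 0.997), the narrowest interval of the 6 tested members.

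Hdac3 was sparse, with 1 and 0 transcripts in wild type HSC, 3 and 5 in heterozygous HSC, 14 and 4 in wild type plate2 and 9 and 20 in heterozygous plate2 libraries. It was seen in 45 of the 436 wells. Hdac8, an X-linked class I gene, gave 1 and 0, 3 and 2, 7 and 3, and 4 and 8 transcripts in the same order. At these counts the genotypes could not be compared for either gene. An antisense gene model, Gm14858, covers the 3′ end of Hdac8, and it had 1 transcript in all 8 libraries.

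Of class IIa, Hdac7 was the member with the highest level. It stood at 111 and 116 CPM in wild type HSC, 213 and 94.5 in heterozygous HSC, 131 and 153 in wild type plate2 and 195 and 139 CPM in heterozygous plate2 libraries. The genotypes overlapped in both sets, and heterozygous HSC library 1 was the highest of all 8. The genotype effect of Hdac7 over both sets was 0.20 ± 0.26 (95% interval -0.35 to 0.75, edgeR adjusted p = 0.989). Hdac4 stood at 30.2 and 77.6 CPM in wild type HSC, 36.8 and 69.6 in heterozygous HSC, 29.96 and 35.3 in wild type plate2 and 30.1 and 20.6 CPM in heterozygous plate2 libraries, from 3 to 22 transcripts each. The libraries of both genotypes overlapped in each set, and the effect of Hdac4 over both sets was -0.35 ± 0.37 (interval -1.12 to 0.42, adjusted p = 0.975). Hdac5 gave 2 and 3 transcripts in wild type HSC, 7 and 13 in heterozygous HSC, 10 and 9 in wild type plate2 and 15 and 14 in heterozygous plate2 libraries. In CPM these were 20.1 and 29.1, 28.7 and 64.6, 13.6 and 21.2, and 23.8 and 20.6, so the genotypes overlapped.

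Hdac6, the tubulin deacetylase gene of class IIb, was listed with 4 and 0 transcripts in wild type HSC, 1 and 3 in heterozygous HSC, 2 and 1 in wild type plate2 and 8 and 9 in heterozygous plate2 libraries. In plate2 libraries these were 2.72 and 2.35 CPM in wild type against 12.7 and 13.3 CPM in heterozygotes. Those libraries were apart, as were 43.8% of all tested genes in plate2, and Hdac6 did not pass the count filter, so this rests on 3 against 17 transcripts. In HSC libraries the genotypes overlapped in Hdac6, with 4 transcripts in each.

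The NAD-dependent members differed in how well they were counted. Sirt1 had the smallest SD among the tested members, at 30.2 and 29.1 CPM in wild type HSC, 36.8 and 39.8 in heterozygous HSC, 42.2 and 37.7 in wild type plate2 and 38.1 and 33.9 CPM in heterozygous plate2 libraries. Its genotype effect over both sets was -0.15 ± 0.34 (95% interval -0.85 to 0.55, edgeR adjusted p = 0.997). Sirt2 stood at 20.1 and 0 CPM in wild type HSC, 53.2 and 34.8 in heterozygous HSC, 44.9 and 44.7 in wild type plate2 and 53.9 and 73.7 CPM in heterozygous plate2 libraries. Heterozygous libraries were above wild type ones within each set, where 37.2% of all genes in HSC and 43.8% in plate2 were apart between genotypes. Over all 8 libraries the genotypes overlapped in Sirt2, since wild type plate2 lay within the range of heterozygous HSC, and 1.88% of all tested genes were apart over the 8. A count of 0 in wild type HSC library 2 allows up to 29.1 CPM. The genotype effect of Sirt2 was 2.06 ± 0.94 in HSC (interval 0.12 to 4.01, adjusted p = 0.428) and 0.63 ± 0.37 over both sets (interval -0.13 to 1.39, adjusted p = 0.934), and it did not pass.

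**Figure D2:**
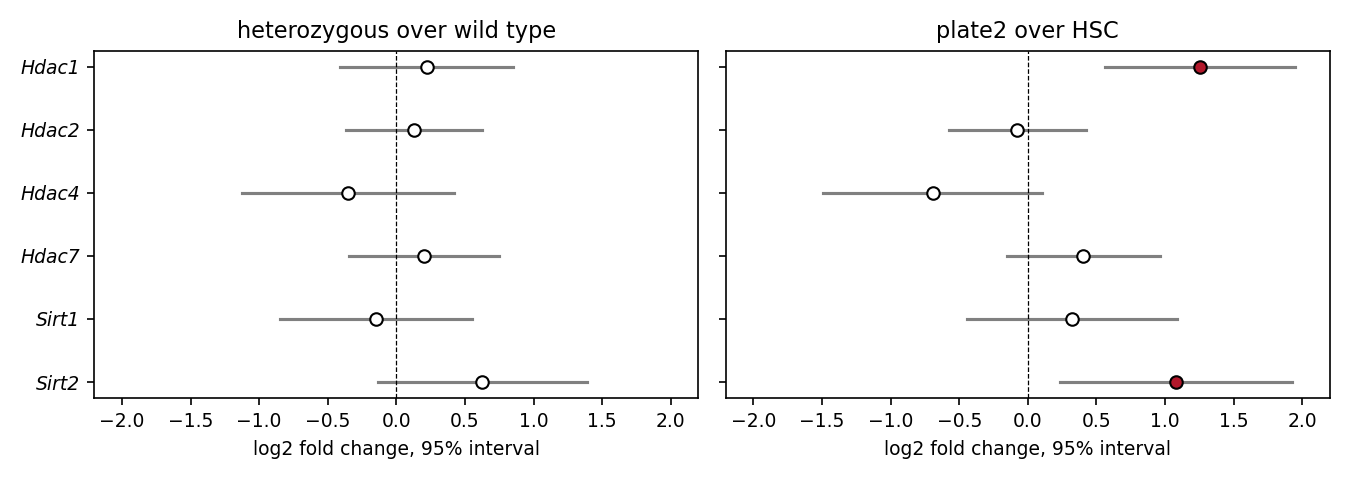
Fitted log2 fold changes of the 6 tested members over all 8 libraries, left for heterozygous over wild type with plate set as a term, right for plate2 over HSC with genotype as a term. Points are edgeR estimates, bars are 95% intervals and filled points passed an adjusted p of 0.05, which were Hdac1 and Sirt2 in the right panel.

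Between the plate sets Hdac1 rose in plate2 libraries, Sirt2 rose by a call that many alternatives ended, and Hdac2 did not pass in either direction. Over both genotypes 2 of the 6 tested members were higher and 0 lower, against a background in which 34.2% of genes were called, 17.6% higher and 16.6% lower. A share of 2 in 6 is near that background, so it says nothing particular about deacetylases. Plate set cannot be told apart here from sort gate, library batch and well depth. The sums also cannot tell a different mix of cells from a different level in each cell, nor fewer cells of a type from less RNA per cell.

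The rise of Hdac1 was 1.25 ± 0.33 on the log2 scale, 2.38-fold (SE, n = 4 libraries per set, 95% interval 0.56 to 1.95, edgeR adjusted p = 0.00622). All 4 plate2 libraries, at 89.5 to 106 CPM, lay above all 4 HSC libraries, at 9.70 to 74.6 CPM, as did or conversely lay below 30.4% of tested genes. In wild type cells alone Hdac1 rose by 2.13 ± 0.58 (adjusted p = 0.0158, with 17.8% of genes called and 9.64% called higher), and without wild type HSC library 2 that value was 1.49 (adjusted p = 0.181). In heterozygous cells it was 0.89 ± 0.38 and did not pass (adjusted p = 0.0973, 22.1% of genes called). Among stem cell-like cells only, an alternative added after seeing the data, Hdac1 stood at 1.01 ± 0.53 (adjusted p = 0.165), without erythroid progenitor-like cells at 1.04 ± 0.45 (adjusted p = 0.0864), and with wells thinned to 1000 transcripts and no count filter at 1.15 ± 0.76 (adjusted p = 0.597).

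Sirt2 was 2.11-fold higher in plate2 libraries, a log2 fold change of 1.08 ± 0.41 (95% interval 0.23 to 1.92, edgeR adjusted p = 0.0448). The libraries overlapped, since heterozygous HSC library 1 at 53.2 CPM lay above both wild type plate2 libraries. The call ended with DESeq2 (adjusted p = 0.0553), with limma-voom (0.0913) and without any of 6 of the 8 libraries, where Sirt2 stood between 0.82 and 1.07. In wild type cells the Sirt2 value was 2.40 ± 0.86 (adjusted p = 0.0563) and in heterozygous cells 0.71 ± 0.44 (adjusted p = 0.264).

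The other 4 tested members did not pass between the sets. Hdac2 stood at -0.08 ± 0.24 (95% interval -0.58 to 0.42, edgeR adjusted p = 0.835), Hdac7 at 0.40 ± 0.27 (interval -0.16 to 0.96), Sirt1 at 0.32 ± 0.37 (interval -0.44 to 1.09) and Hdac4 at -0.69 ± 0.39 (interval -1.49 to 0.11). The 3 HSC libraries highest in Hdac4 had from 36.8 to 77.6 CPM, above every plate2 library, and wild type HSC library 1 at 30.2 CPM lay within the plate2 range. The median of the 6 members was 0.36, against 0.04 over all genes. Hdac5, not tested, had 20.1 to 64.6 CPM in HSC and 13.6 to 23.8 CPM in plate2 libraries, which overlapped.

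Because HDAC1 and HDAC2 fill the same place in the same complexes, their transcripts were also set against each other within each library, a description chosen after the values were seen and not tested. Hdac1 made up 17.4% and 7.14% of the Hdac1 and Hdac2 transcripts in wild type HSC libraries and 15.2% and 27.3% in heterozygous ones. In plate2 libraries its share was 37.8% and 34.2% in wild type and 37.2% and 38.3% in heterozygous cells. The mean was 16.7% ± 8.28 in HSC and 36.9% ± 1.81 in plate2 libraries (SD, n = 4 each), and the sets did not overlap. How often pairs of genes are apart in this way was not measured. Hdac1 alone was already apart between the sets, as were 30.4% of tested genes. In wild type HSC library 2 the share rests on 1 Hdac1 and 13 Hdac2 transcripts.

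Well depth moved with this share inside each set. In HSC libraries Hdac1 made up 3.45% in barcodes under 1000 transcripts (2 of 58, Wilson 95% interval 0.951% to 11.7%), 12.1% in wells from 1000 to under 3000 (8 of 66), 24.3% in wells from 3000 to under 10000 (18 of 74, 16.0% to 35.2%) and 19.4% above that (6 of 31). In plate2 libraries the same bins gave 13.0% (6 of 46), 18.8% (3 of 16), 37.9% (33 of 87, 28.5% to 48.4%) and 37.5% (199 against 331 Hdac2 transcripts, 33.5% to 41.7%). The plate2 share was the higher one in each depth bin, and the intervals of the 2 sets overlapped in each. The deepest HSC bin holds 5 wells. These intervals cover counting error only, and the part of depth in the difference was not tested. In CPM, Hdac1 over both sets went from 29.3 in barcodes under 1000 transcripts to 101 in wells of 10000 or more, while Hdac2 went from 352 to 176.

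**Figure D3:**
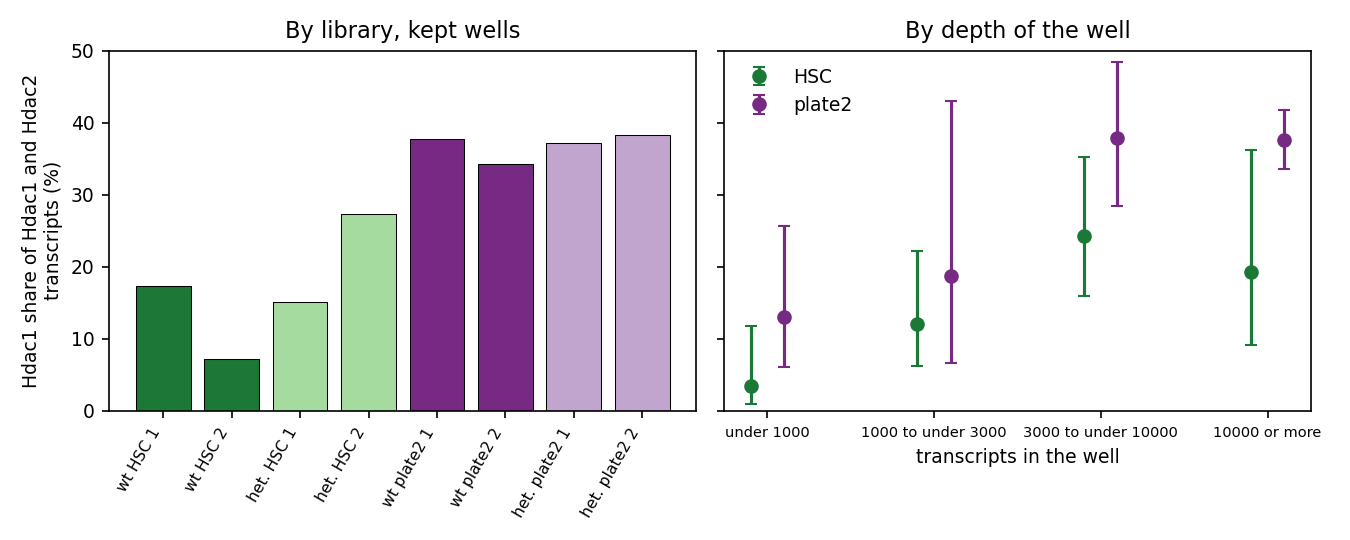
Share of Hdac1 among the Hdac1 and Hdac2 transcripts (%), left in the kept wells of each library, right by transcripts per well for HSC and plate2 libraries with Wilson 95% intervals. All 4 plate2 libraries lie between 34.2% and 38.3%, above the HSC libraries, and in both sets the share is lower in wells under 3000 transcripts than in wells from 3000 to under 10000.

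Genes that serve the deacetylases in complexes were also counted between the plate sets. The lists, 70 genes in all besides the members, had 52 tested genes, of which 6 were higher and 13 lower in plate2 libraries over both genotypes. These 19 of 52 lie near the 34.2% called among all genes, of which 17.6% were higher and 16.6% lower. No gene of these lists passed between genotypes over both sets, with a median of -0.01. All 12 NuRD genes were tested, of which 6 were higher and 2 lower, with a median log2 fold change of 0.95 where all genes had 0.04. SIN3 had 0 higher and 2 lower of 9, CoREST 0 and 2 of 9, NCoR and SMRT 0 and 2 of 6, and the class IIa partners 0 and 4 of 12, where 16.6% of all genes were lower. Differences between the complexes were not tested. MiDAC had 1 tested gene, Dnttip1, which did not pass (0.94 ± 0.48, edgeR adjusted p = 0.132).

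Within NuRD, the remodelling complex that pairs HDAC1 and HDAC2 with a chromatin motor, the motor genes moved in opposite directions. Chd3 stood at 332 and 281 CPM in wild type HSC, 307 and 264 in heterozygous HSC, 77.6 and 96.5 in wild type plate2 and 88.8 and 91.4 CPM in heterozygous plate2 libraries. It fell by 1.51 ± 0.22 on the log2 scale (SE, n = 4 per set, edgeR adjusted p = 3.1e-05). Chd4, chosen after its values were seen, went from 171, 204, 225 and 348 CPM in HSC to 422, 391, 398 and 392 CPM in plate2 libraries, a rise of 0.97 ± 0.24 (adjusted p = 0.00355). Chd4 made up 34.0% to 56.9% of the 2 motor genes' transcripts in HSC and 80.2% to 84.5% in plate2 libraries. The sets did not overlap for either gene, where 30.4% of all tested genes did not overlap. With the genes apart in opposite directions the share had to be apart too, so it adds no further result.

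Among the other NuRD genes Mbd2, which encodes a reader of methylated DNA, rose. It stood at 20.1 to 44.8 CPM in HSC and 80.1 to 112 CPM in plate2 libraries (1.75 ± 0.32, edgeR adjusted p = 0.000313). Cdk2ap1 went from 50.4 to 102 CPM in HSC to 131 to 203 CPM in plate2 libraries (1.28 ± 0.26, adjusted p = 0.000854). Mta1, a scaffold that binds HDAC1 and HDAC2, went from 38.8 to 84.5 CPM to 112 to 151 CPM (1.22 ± 0.28, adjusted p = 0.00208). Each of these genes had no overlap between the 4 HSC and the 4 plate2 libraries, as was the case for 30.4% of all tested genes. With stem cell-like cells only, 36 partner genes were tested in place of 52, and Chd3, Chd4, Mta1 and Rbbp7 of NuRD passed. Mbd2 and Cdk2ap1 were not among the genes called. Whether these 2 genes passed the count filter there is not given here, so a lost effect is not shown.

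Of the partners of class IIa enzymes, Prkd3, a kinase of the family that phosphorylates them, fell from 114 to 282 CPM in HSC to 44.9 to 78.1 CPM in plate2 libraries (-1.31 ± 0.30, edgeR adjusted p = 0.00183). The 14-3-3 genes Ywhag (-0.95 ± 0.24, adjusted p = 0.00368) and Ywhab (-0.89 ± 0.22, adjusted p = 0.00369) fell, and so did the transcription factor gene Mef2c (-0.80 ± 0.23, adjusted p = 0.0099). The 4 other 14-3-3 genes tested did not pass. Gps2 of the HDAC3 complexes fell by 1.16 ± 0.27 (adjusted p = 0.00227) and Tbl1x fell by 0.67 ± 0.22 (adjusted p = 0.0242). In CoREST, which pairs HDAC1 and HDAC2 with the demethylase KDM1A, Phf21a fell by 1.38 ± 0.31 and Zmym3 fell by 1.04 ± 0.32. In SIN3, Ing1 fell by 0.81 ± 0.26 and Arid4a fell by 0.74 ± 0.24.

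Deacetylase genes outside the members were mostly rare. Sirt7, a nucleolar sirtuin, fell from 77.6 to 141 CPM in HSC to 43.6 to 57.5 CPM in plate2 libraries (-0.92 ± 0.27, edgeR adjusted p = 0.013). Sirt3 and Sirt6 were tested and did not pass. Hdac9 gave 8, Sirt4 and Sirt5 15 each, Hdac11 37 and Hdac10 78 transcripts in all 8 libraries. A list of 14 acetyltransferase genes besides Kat8 that the files name summed to 883 to 1105 CPM in HSC and 858 to 977 CPM in plate2 libraries. The list includes Naa50, and not all of its genes need act on the lysines that the members serve. The members gave 0.440 to 0.652 transcripts for each acetyltransferase transcript in HSC and 0.588 to 0.769 in plate2 libraries, and these ranges overlapped.

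Other measures also differed between the sets beside these genes. Summed markers of erythroid progenitors, 15 listed and 14 or 15 detected, ran from 1149 to 3032 CPM in HSC and from 3966 to 4913 CPM in plate2 libraries. The summed S phase list, 20 genes, ran from 1009 to 2466 CPM in HSC and from 2603 to 3659 CPM in plate2 libraries, with 12 of 20 genes higher and 0 lower, against 17.6% and 16.6% of all genes. Megakaryocyte markers, 10 listed, ran from 715 to 1041 CPM in HSC and from 266 to 381 CPM in plate2 libraries. Late erythroid markers stood at 16082 CPM in wild type HSC library 1 and between 73.0 and 2872 CPM in the other 7 libraries. Mature neutrophil markers ran from 0 to 5289 CPM in HSC and from 17.7 to 2623 CPM in plate2 libraries. Without mature neutrophil-like wells Hdac1 stood at 1.23 ± 0.34 (edgeR adjusted p = 0.00729). The part of the other measures in the changes was not tested.

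**Figure D4:**
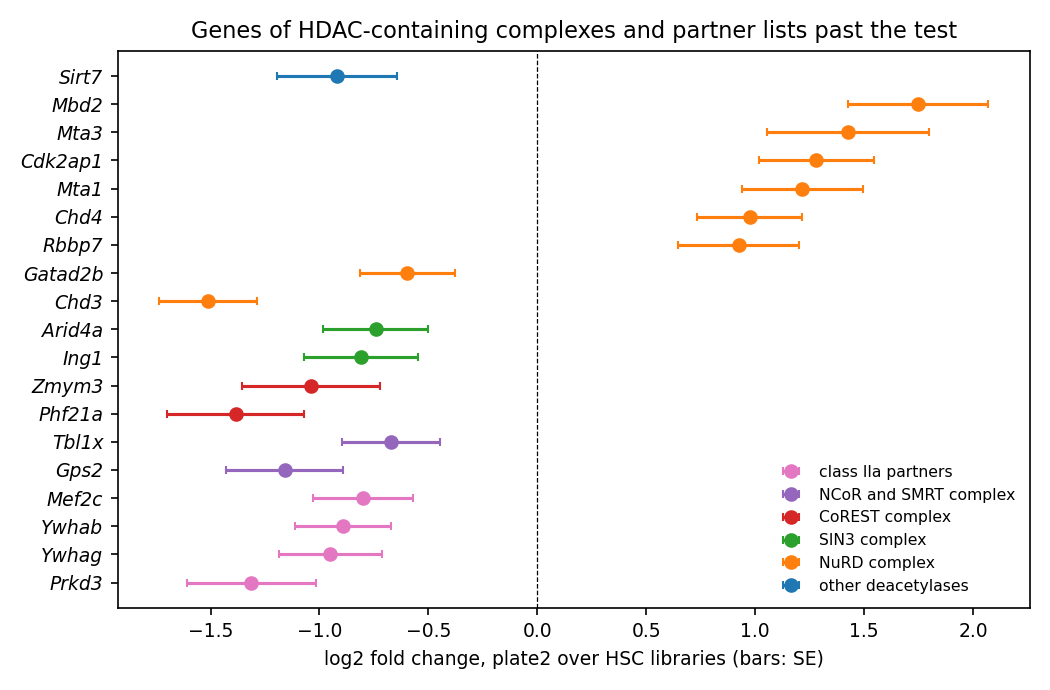
Fitted log2 fold change of plate2 over HSC libraries for the 19 genes of the HDAC complex and partner lists that passed the edgeR test over both genotypes, coloured by list. Points are estimates and bars their SE over 8 libraries. All genes to the right of 0 are NuRD genes, with Chd3 and Gatad2b of that list to the left.

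Levels were next compared between classes of wells. Kept cells were clustered without the members and the partner genes, and clusters were named from markers. In plate2 libraries 91 wells were erythroid progenitor-like, 56 stem cell-like and 24 granulocyte-monocyte progenitor-like, 6 were mature neutrophil-like and 27 stayed unnamed. The granulocyte-monocyte progenitor-like wells were 11 and 1 in wild type libraries 1 and 2 and 4 and 8 in the heterozygous ones. Levels of that class are therefore pooled, and wild type library 1 weighs heavily in them. In HSC libraries 195 wells were stem cell-like and 16 erythroid progenitor-like. Stem cell-like wells of HSC came nearly all from clusters 1 and 2, and those of plate2 from cluster 8. Levels per class are descriptions with no test, and the intervals are exact Poisson 95% intervals for counting error only.

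Hdac7 was high in erythroid progenitor-like wells. In plate2 libraries it gave 311 transcripts there, 231 CPM (206 to 258), against 44 transcripts and 79.9 CPM (58.0 to 107) in stem cell-like and 17 transcripts and 42.7 CPM (24.9 to 68.4) in granulocyte-monocyte progenitor-like wells. By library the erythroid progenitor-like level of Hdac7 was 226 and 237 CPM in wild type and 276 and 191 CPM in heterozygous cells, and the stem cell-like level was 73.2 and 92.5, and 100.3 and 47.9 CPM. All 4 plate2 libraries had the higher level in erythroid progenitor-like wells, and the ranges of the 2 classes did not overlap. The classes come from the expression of other genes in these wells. The share of all genes apart between them was not measured, so the separation is not shown to be particular to Hdac7.

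Within the erythroid progenitor-like wells Hdac7 was above the stem cell-like level in each cluster. Cluster 7, named from Gata1, Car1 and Aqp1, had 278 CPM (136 transcripts, seen in 37 of 37 wells). Cluster 4, named from 11 erythroid markers and made of the deepest wells, had 199 CPM (164 transcripts in 25 of 29 wells). Cluster 3, with a median of 1160 transcripts per well, had 303 CPM from 11 transcripts. With every well thinned to 1000 transcripts, 22.0% of erythroid progenitor-like wells held an Hdac7 transcript, against 3.57% of stem cell-like and 8.33% of granulocyte-monocyte progenitor-like wells. Before thinning these shares were 75.8%, 53.6% and 45.8%. The class depends on the clustering: with 30 principal components 50 plate2 wells were erythroid progenitor-like, at 200.3 CPM of Hdac7, and 75 in place of 27 plate2 wells were unnamed, at 217 CPM (185 to 254) in place of 40.3 CPM.

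In HSC libraries the order was less clear. Hdac7 stood at 192 CPM (120 to 291) in 16 erythroid progenitor-like wells and at 134 CPM (103 to 170) in stem cell-like wells. The stem cell-like level was 45.9 and 61.2 CPM in wild type and 232 and 91.4 CPM in heterozygous libraries, so heterozygous library 1, with 42 of the 65 transcripts, set it. The 3′ end of Hdac7 on chromosome 15 overlaps that of Slc48a1, a haem transporter gene on the other strand, by 29 bases (GENCODE vM21, GRCm38), and the strand used in counting is not given in the sources used here. Slc48a1 stood at 116 CPM in erythroid progenitor-like, 133 CPM in stem cell-like and 90.5 CPM in granulocyte-monocyte progenitor-like wells of plate2 libraries, so its order was not that of Hdac7.

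Hdac5 ran the other way. In plate2 libraries it gave 4 transcripts in 1349501 of erythroid progenitor-like wells, 2.96 CPM (0.808 to 7.59), against 29 transcripts and 52.6 CPM (35.2 to 75.6) in stem cell-like and 15 transcripts and 37.7 CPM (21.1 to 62.2) in granulocyte-monocyte progenitor-like wells. By library the stem cell-like level of Hdac5 was 36.6 and 40.5 CPM in wild type and 72.9 and 76.6 CPM in heterozygous cells, and the erythroid progenitor-like counts were 0, 2, 1 and 1. The 2 classes were apart in all 4 plate2 libraries, again without a measured share of all genes beside it. In stem cell-like wells of HSC libraries Hdac5 stood at 47.2 CPM (29.9 to 70.9, 23 transcripts), and in their 16 erythroid progenitor-like wells it gave 1 transcript. An Hdac5 transcript was seen in 4 of 91 erythroid progenitor-like wells (4.40%) and in 22 of 56 stem cell-like wells (39.3%). Thinned to 1000 transcripts, these were 0 of 91 and 3 of 56, too few to compare.

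**Figure D5:**
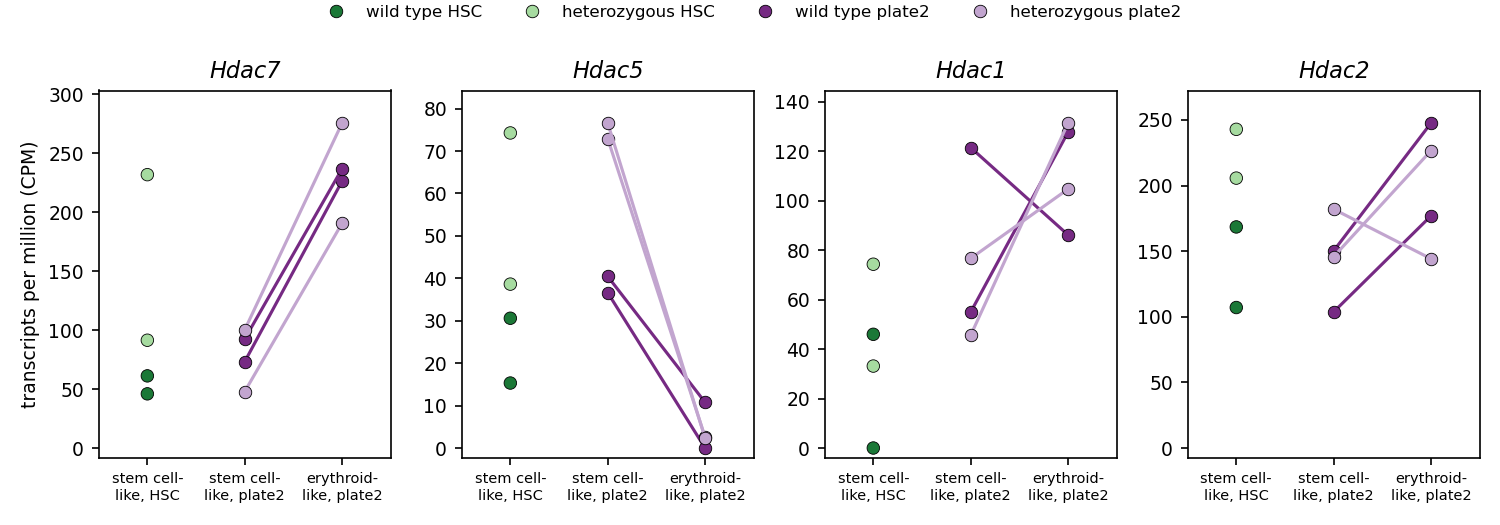
Level of Hdac7, Hdac5, Hdac1 and Hdac2 by cell class and library (CPM, linear axes that differ between panels), for classes with at least 10 wells in a library. Points are libraries and lines join the 2 classes of 1 plate2 library. Hdac7 rises and Hdac5 drops from stem cell-like to erythroid progenitor-like wells in all 4 plate2 libraries, while lines run both ways for Hdac1 and Hdac2.

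The start regions of these 2 class IIa genes are shown because their levels went in opposite directions between the same wells. RefSeq windows from 250 bases before to 50 after a gene's start (GRCm38.p6) were present for 8 of the 10 members, all but Hdac1 and Hdac3. AGATAA, 1 form of the letters bound by GATA factors, was searched on both strands and found in 11.2% of all 32851 windows of this length. Other forms of these letters were not searched. Among the 11 member windows used it was in 1, that of an Hdac7 start on chromosome 15 (97831446 to 97831745, minus strand), 76 bases before the start. Hdac7 has 4 windows and the one with the match is shown. The other 3, and the 1 of Hdac5 on chromosome 11 (102230123 to 102230422, minus strand), hold no AGATAA on either strand, but may hold other forms. A match is a description of letters and not a bound site. The windows follow 5′ to 3′, with the match in capitals.
Hdac7: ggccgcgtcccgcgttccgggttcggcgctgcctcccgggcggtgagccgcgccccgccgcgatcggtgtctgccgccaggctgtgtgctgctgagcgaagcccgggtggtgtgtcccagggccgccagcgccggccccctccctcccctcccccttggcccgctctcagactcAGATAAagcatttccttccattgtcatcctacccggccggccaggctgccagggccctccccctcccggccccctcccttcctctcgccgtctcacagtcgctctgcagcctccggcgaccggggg
Hdac5: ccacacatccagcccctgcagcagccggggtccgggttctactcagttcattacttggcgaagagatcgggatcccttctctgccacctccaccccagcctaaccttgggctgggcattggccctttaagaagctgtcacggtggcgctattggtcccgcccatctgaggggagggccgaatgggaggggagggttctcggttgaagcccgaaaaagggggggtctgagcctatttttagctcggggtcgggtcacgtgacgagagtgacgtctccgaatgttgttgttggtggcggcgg

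The other members varied less between classes. In plate2 libraries Hdac1 stood at 116 CPM (98.2 to 135) in erythroid progenitor-like, 78.0 (56.5 to 105) in stem cell-like and 75.4 (50.9 to 108) in granulocyte-monocyte progenitor-like wells. By library it was higher in erythroid progenitor-like wells in 3 of 4, the exception being wild type library 2 at 86.1 against 121 CPM. Within the class Hdac1 was 138 CPM in cluster 4 and 79.7 CPM in cluster 7. In stem cell-like wells of HSC libraries Hdac1 stood at 45.2 CPM (28.3 to 68.4). That interval overlaps those of the plate2 stem cell-like and granulocyte-monocyte progenitor-like wells. By library the stem cell-like level of Hdac1 was 46.0 and 0 CPM in wild type and 33.1 and 74.3 CPM in heterozygous HSC libraries, against 54.9 and 121, and 45.6 and 76.6 CPM in plate2 libraries, and the sets overlapped.

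Hdac2 stood at 191 CPM in erythroid progenitor-like, 142 in stem cell-like and 148 in granulocyte-monocyte progenitor-like wells of plate2 libraries, and at 201 CPM in stem cell-like wells of HSC libraries. Sirt2 stood at 69.7 CPM (56.3 to 85.2) in erythroid progenitor-like and 43.6 CPM (27.9 to 64.8) in stem cell-like wells, with 88.6 CPM in cluster 4 and 40.9 CPM in cluster 7. Sirt1 had 46.7, 32.7 and 22.6 CPM in erythroid progenitor-like, stem cell-like and granulocyte-monocyte progenitor-like wells, and Hdac4 had 34.1, 30.9 and 12.6 CPM. Hdac3 had 17.8, 18.1 and 27.7 CPM, from 24, 10 and 11 transcripts, and Hdac6 and Hdac8 had at most 11 transcripts in any of these classes. Summed over the 10 members the level was 724 CPM (679 to 771) in erythroid progenitor-like, 497 (440 to 560) in stem cell-like and 430 (368 to 499) in granulocyte-monocyte progenitor-like wells. The 27 unnamed plate2 wells had 5 Hdac1, 4 Hdac2 and 6 Hdac7 transcripts.

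In a genotype test on the erythroid progenitor-like wells of plate2 alone, chosen after seeing the data, 0 members passed, where edgeR called 0.168% of 5364 genes. Hdac7 there was 226 and 237 CPM in wild type and 276 and 191 CPM in heterozygous libraries, Hdac2 was 177 and 248 against 227 and 144 CPM, and Hdac1 was 128 and 86.1 against 131 and 105 CPM. The genotypes overlapped in all 3 genes. In stem cell-like wells of plate2 Hdac5 was apart, at 36.6 and 40.5 CPM against 72.9 and 76.6 CPM, from 13 and 16 transcripts. In stem cell-like wells of HSC libraries it was 15.3 and 30.6 against 38.6 and 74.3 CPM, from 3 and 20 transcripts. The gene was untested, and 37.2% and 43.8% of all tested genes were apart between genotypes in sums over all wells of the HSC and plate2 libraries.

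Detection per well followed depth. In HSC libraries 35.3% of wells held an Hdac2, 26.3% an Hdac7 and 11.6% an Hdac1 transcript, against 62.3%, 55.9% and 47.5% in plate2 libraries. With wells thinned to 1000 transcripts these shares were 16.8%, 12.1% and 3.02% in HSC and 14.7%, 11.8% and 4.90% in plate2 libraries. The shares of Sirt2 went from 7.76% and 33.8% to 1.29% and 4.41%, and those of Hdac4 from 13.8% and 21.1% to 6.47% and 1.96%. At this depth 1 well gives no level, and no well held more than 18 transcripts of any member, which was Hdac7 in wild type plate2 library 1.

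Genes whose levels over the 8 libraries ran closest to each member are given as a description, since the libraries differ in set and depth together. Over 3245 candidate genes, by Pearson's r of log2(CPM + 5), Hdac1 was closest to Arf1 (0.99), Eef1a1 (0.99) and Rpl17 (0.98). Sirt2 was closest to Rpl22l1 (0.996), U2af1 (0.99) and Setd5 (0.98), and Hdac4 to Elmo1 (0.98), Naip2 (0.96) and Fam168a (0.96). Hdac2 was closest to Vamp8 (0.96), Synj2bp (0.93) and Ubxn4 (0.92), and Hdac7 to Adcy7 (0.95), Asap1 (0.95) and Eif5a (0.89). Sirt1, with the smallest SD among the tested members, was closest to Mtf2 (0.92), Ehmt1 (0.89) and the clone-named model RP23-233O21.6 (0.89).

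The members lie on 8 chromosomes of GRCm38 (GENCODE vM21). Hdac1 lies on chromosome 4 from 129516104 to 129542713 (minus strand), Hdac2 on 10 from 36974544 to 37001889 (plus), Hdac4 on 1 from 91928779 to 92195699 (minus) and Hdac5 on 11 from 102194432 to 102230166 (minus). Hdac7 lies on 15 from 97792664 to 97844502 (minus), Sirt1 on 10 from 63319005 to 63381704 (minus) and Sirt2 on 7 from 28766735 to 28788661 (plus). Hdac6 and Hdac8 are on X, from 7930120 to 7947889 and from 102284639 to 102505359 (both minus), and Hdac3 is on 18 from 37935844 to 37955016 (minus). Besides Hdac7 and Hdac8, no member has another annotated gene over its 3′ end, where the tags lie.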

How the data were processed

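CEL-Seq2 libraries of sorted, frozen single cells were measured, per the labels' protocols. The deposited values are expected counts of transcripts per gene and barcode, with no depth scaling. They carry the usual correction for molecular identifiers that collide among 4096, and undoing it gave whole numbers to within 3.6e-12. Per the submitters' processing notes, BWA 0.6.2-r126 and mm10 were used. Annotation, read filters, counting tool and strand: not given in the sources used here.

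Titles and file names of the wild type plate2 libraries carry each other's library number. The recorded sample of each file was followed, and both belong to 1 group, so only which is called library 1 or 2 is in doubt. In all, the files held 1536 barcodes, 19879 gene names and 70 spike-in rows, which stayed out of sums and tests. Doublets were not called because each well was to receive 1 sorted cell. Counts were summed per library over kept cells and rounded. The test was that of edgeR 4.0.16 under R 4.3.3 (TMM, filterByExpr, quasi-likelihood, two-sided), with Benjamini-Hochberg adjustment over all 6690 genes. One-way groups gave effects within a set or genotype, and an additive model gave those over both. CPM carry no TMM factors. Between the libraries of a group, chi-square per degree of freedom was 2.20 to 4.47, so no pair agreed within sampling noise. The test was tried on simulated plate2 and HSC counts with known changes.

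Wells were clustered with scanpy 1.11.5 (Leiden, Python 3.11.15) and named from marker lists. The members and lists were chosen with earlier results of these data known. Named genes are the members, Kat8, up to 4 passing genes per list by smallest p, and the 3 genes closest to each tested member of at least 30 CPM. Alternatives were RLE factors, DESeq2 1.42.0, limma-voom 3.58.1, other filters on counts and wells, thinning, a replicate block, other clusterings and leaving out each library. Restricting or leaving out cell classes, and thinning without the count filter, were chosen after seeing the data.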

Additional observations from a re-analysis of the deposited data

Results flagged for a closer look

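The 1100 barcodes under 1000 transcripts, which enter no comparison, held 180 transcripts of the 10 members, more than the 3 that a count of 0 allows. At 660 CPM their sum was near the 591 CPM of kept wells, but its make-up differed. Hdac2 gave 96 of the 180 (352 CPM against 172 in kept wells), Hdac1 gave 8 (29.3 against 85.7 CPM), Hdac5 gave 2 (7.34 against 23.4 CPM) and Hdac3 gave 0 (against 18.0 CPM). Hdac7 gave 33 (121 against 151 CPM). These barcodes include those of other libraries' wells and failed wells, and no cause was tested.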

How the results depend on the processing

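No member was called between genotypes under any of 372 refits of the 6 tested members (smallest adjusted p = 0.239). For plate2 over HSC, both genotypes, the count of 2 members became 1 with DESeq2, limma-voom, the replicate block, wells of at least 2000 transcripts and without mature neutrophil-like wells, always Hdac1. It became 0 with thinning to 1000 transcripts without the count filter, with stem cell-like wells only (5 members tested) and without erythroid progenitor-like wells. It was 1 to 2 without single libraries. With thinning and the filter, here and in wild type cells, the count was also 0. Only 1 member, Hdac2, was tested there, so neither Hdac1 nor Sirt2 could pass and that 0 decides nothing. In wild type cells the count of 1 became 0 with DESeq2, limma-voom, thinning without the count filter and stem cell-like wells only, and 0 to 2 without single libraries. Without erythroid progenitor-like wells it stayed 1, but the gene was Sirt2, and Hdac1 did not pass (2.31, adjusted p = 0.0571). The partner count of 19 of 52 tested genes became 11 of 53 with at least 2000 transcripts and 9 of 36 in stem cell-like wells. It became 5 of 16 thinned, 4 of 64 thinned without the count filter, and 13 to 20 without single libraries. The lower counts under thinning and cell classes come with fewer transcripts, and other causes were not tested. HSC libraries of the genotypes share replicate numbers only, and plate2 libraries, numbered by accession, were not in the block. With the replicate block Hdac1 stood at 1.33 ± 0.44 (adjusted p = 0.0409), Sirt2 at 0.73 ± 0.49 (adjusted p = 0.305) and 13 partner genes passed. Deviations of same-numbered HSC libraries had r = -0.09 over 6690 genes. With only the 96 barcodes that held most of each library's transcripts, Hdac1, Sirt2 and 19 partner genes passed between the sets over both genotypes. Of 165 levels in named classes under other clusterings 163 stayed within their counting interval. Part of this was given in advance, and unnamed wells were not counted. At a Leiden resolution of 0.5 the plate2 erythroid progenitor-like (91), stem cell-like (56) and granulocyte-monocyte progenitor-like (24) wells had the same counts as in the main clustering. With 30 components the erythroid progenitor-like plate2 wells were 50 in place of 91, with Hdac7 at 200.3 and Sirt2 at 85.5 CPM, and the 75 unnamed plate2 wells had 217 CPM of Hdac7. Depth is 1 limit: HSC libraries held 99312 to 244299 transcripts, where 3 counts are 12.3 to 30.2 CPM.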
